A study of Rattus norvegicus with 8 samples.

Results

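The genes described here encode the proteins of the large (60S) subunit of the cytosolic ribosome. Members were taken by name, as the rows of the count table called Rpl followed by a number and, at most, lower-case letters, together with the stalk genes Rplp0, Rplp1 and Rplp2. This gave 48 of 17446 genes. The naming rule uses no measured value, but the family was picked with earlier results of these data known. Whole blood RNA was sequenced from male wild-type Wistar rats aged 12 to 14 weeks, in 2 models of hypertension, with 2 libraries before and 2 after administration of Chios mastic gum (CMG), a tree resin, in each model. In the AngII model, Angiotensin II was infused by osmotic minipump at 0.4 mg/kg/day, and blood represented week 1 (before CMG) and week 5 (after CMG). In the DOCA–HS model, deoxycorticosterone acetate was given weekly at 100 mg/kg with 0.9% NaCl and 1% KCl in the drinking water, and blood represented week 3 and week 7. CMG was given daily by gavage at 220 mg/kg for the 4 weeks in between, in both models. Hypertension was induced in all groups. After CMG, the paper reports systolic pressure not significantly different from baseline in either model, and lower than in its control rats. No library of rats without CMG at the later week was analysed here. Each difference of after against before therefore also holds 4 further weeks of the model and of age. Neither the labels nor the methods state whether a replicate number stands for 1 rat across libraries, so p-values measure only the spread between these samples.

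The large subunit joins amino acids into protein. Its stalk, built from Rplp0, Rplp1 and Rplp2 on a base that holds Rpl12, recruits the elongation factors. Rpl5 and Rpl11 bind the 5S ribosomal RNA, and when they are free of the ribosome they bind Mdm2, which releases p53. A nascent chain leaves through a tunnel that Rpl4 and Rpl39 line and that Rpl26, Rpl31, Rpl35, Rpl19 and Rpl23a surround at its exit. The mRNAs of these proteins typically begin with a run of pyrimidines, the terminal oligopyrimidine element, through which mTOR signaling sets their translation. In blood, ribosomal mRNAs are found in lymphocytes and other leukocytes, and also in reticulocytes and platelets, which keep RNA after the nucleus is lost or was never present.

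The start sites are shown for 7 members on which the results turn, because the pyrimidine run there is the feature this family is known for. Each line gives 30 bases of the RefSeq promoter table for GRCr8, a newer assembly than the rn6 genome of the alignment, with 15 bases on either side of the point where the annotated transcript begins. Capitals mark the longest unbroken run of C and T.
Rplp0 (chr12:46718376-46718405, minus strand): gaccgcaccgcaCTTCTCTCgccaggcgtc
Rplp1 (chr8:71290858-71290887, minus strand): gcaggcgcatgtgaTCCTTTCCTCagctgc
Rplp2 (chr1:205975906-205975935, plus strand): CCTTTCgccgccggacgccgccgaggtcgc
Rpl5 (chr14:1995211-1995240, minus strand): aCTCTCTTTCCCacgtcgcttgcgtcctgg
Rpl36a (chrX:102059434-102059463, plus strand): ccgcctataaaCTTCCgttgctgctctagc
Rpl37 (chr2:55942930-55942959, plus strand): tggtaggcgtaCTTTCTCTTCCggtctctt
Rpl38 (chr10:100200420-100200449, plus strand): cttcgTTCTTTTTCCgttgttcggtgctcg
The promoter table held 38 of the 48 members. The longest run had a median of 10 bases in them, against 4 bases over 33469 promoters, and 25 members (65.8%) had a run of at least 8 bases, against 11.4% of all promoters. In the 27 small subunit genes of the table the share was 63.0%. Rplp2 and Rpl36a were among the members with a shorter run, of 6 and 5 bases. The letters describe this window only. A run was counted anywhere in it, also before the annotated start, as in Rpl5, Rpl38 and Rplp2. The shares are therefore not those of transcripts that begin with a run. An annotated start can lie some bases away from the one used in blood.

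The libraries held between 4149104 and 13205565 counts, of which 61.9% to 84.3% fell on 2 hemoglobin genes. DOCA–HS after replicate 2 stood apart. It had the fewest counts outside hemoglobin, 651764 against 2195735 to 4490083 in the other libraries, and 2686 genes with at least 10 counts against 6097 to 8280. Ptprc (CD45), carried by leukocytes, was detected in every library, at 75.2 to 172 normalized CPM, beside the hemoglobin genes of red cells. Normalized CPM (gene counts scaled to a common library size) take the total of a library times its TMM factor, which lay between 0.343 and 1.88. In bulk RNA, fewer cells of a type and less RNA per cell cannot be told apart.

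Of the 48 members, 45 passed the filter on low counts in every comparison. Rpl39l, the testis copy of Rpl39, had 0 counts in all libraries. Rpl3l, the muscle copy of Rpl3, had at most 6 counts in a library. Rpl37a had 3, 0, 3 and 0 counts in the AngII libraries and 1, 0, 2 and 0 in the DOCA–HS libraries, while a gene named as its pseudogene, Rpl37a-ps1, had 145 to 554. Whether reads of Rpl37a were counted under the name of its copy was not tested. This limit touches the whole family, since the GRCr8 gene table lists 493 pseudogene copies of 46 members, Rpl9 having the most with 27, and the values of all members are uncertain to that extent. Rpl36al, an intronless copy of Rpl36a, was tested at 7.23 to 22.5 normalized CPM. Because transcript lengths were not used here, values are compared between libraries and not between genes.

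The members together took a near constant part of the counts outside hemoglobin in the AngII model. Their summed share was 2.67% and 2.71% before CMG and 2.59% and 2.79% after it, so the groups overlapped. DOCA–HS libraries had shares of 3.21% and 2.87% before and 3.08% and 3.95% after CMG, and the groups overlapped here too. The highest value was that of DOCA–HS after replicate 2 (95% Wilson interval 3.91% to 4.002%), and the lowest that of AngII after replicate 1 (2.57% to 2.61%). These intervals cover counting error only. The replicates of a group differed by more than that, as the chi-square statistic per degree of freedom over the 45 members was 16.4 (AngII before), 47.6 (AngII after), 8.36 (DOCA–HS before) and 71.0 (DOCA–HS after).

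In the AngII model, large subunit genes lay below the bulk of the genes after CMG, by a small and even amount. The median log2 fold change of the 45 members was −0.38, against −0.013 for the 7201 genes tested, and 45 of 45 lay below 0, from −2.84 to −0.05. Scaled to total counts the median was −0.038 and 14 members lay above 0, but the median of all genes then stood at 0.36, and 45 of 45 members still lay below it. Relative to the median of all genes, the members stood at −0.37 with TMM factors, −0.40 with total counts and −0.41 with total counts outside hemoglobin. Few members passed on their own. A gene is written to have risen or fallen where its p-value was 0.05 or less without adjustment, called the unadjusted threshold here. By this measure 3 of 45 members fell and 0 rose, where 1.61% of all genes fell and 5.04% rose. By the criterion of the study, which adds a log2 fold change beyond 1.5, the 1 member called was Rplp2, against 0.333% of all genes called in this direction. No member had an adjusted p-value under 0.05 (edgeR, Benjamini-Hochberg, lowest 0.663), and with DESeq2 3 members passed the unadjusted and 0 the adjusted threshold. The members differed between the tools, as DESeq2 called Rpl23 and not Rplp2. Both libraries after CMG lay below both before it for 32 members and above for 0, where 18.5% and 21.3% of all genes did so.

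The size of this difference varied with the pair of libraries compared. The median member difference (log2 CPM) of AngII after replicate 1 was −0.16 and −0.31 against before replicates 1 and 2, and that of after replicate 2 was −0.54 and −0.68. After replicate 2 was the lower in both pairings. Without AngII after replicate 1 the median was −0.64, against 0.0098 for all genes. Without AngII after replicate 2 the median was −0.22 and 11 members lay above 0.

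Among DOCA–HS rats, the stalk gene Rplp2 and the genes of the small proteins Rpl38 and Rpl37 rose after CMG with TMM factors, and the other 42 members did not pass. The median log2 fold change of the 45 members was 0.52 with TMM factors, against −0.035 for 7720 genes, and turned to −0.59 with total counts (all genes −0.76) and −0.095 with total counts outside hemoglobin (all genes −0.41). Relative to the median of all genes, these are 0.55, 0.17 and 0.32. With TMM factors 39 members lay above 0 and 6 below it, from −0.81 for Rpl7a to 3.38 for Rplp2. Past the unadjusted threshold, 3 members rose and 0 fell, where 2.73% of all genes rose and 0.44% fell. With total counts 0 members rose. Those 3, Rplp2, Rpl38 and Rpl37, met the criterion of the study, against 1.79% of all genes. None had an adjusted p-value under 0.05 with edgeR (lowest 0.997), and DESeq2 gave 7 members at the unadjusted and 0 at the adjusted threshold. For 12 members both libraries after CMG lay above both before it and for 4 below, where 14.7% and 21.1% of all genes did so.

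DOCA–HS after replicate 2, the shallow library, carried most of this. Its median member difference was 1.04 and 0.86 (log2 CPM) against before replicates 1 and 2, and that of after replicate 1 was −0.092 and −0.15. Without after replicate 2 the median over the members turned to −0.092, against −0.016 for all genes. Without after replicate 1 it was 0.93, against −0.37 for all genes, and then rested on the shallow library alone. With at least 10 counts required in every library, 43 members were left, with a median of 0.094.

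**Figure D1:**
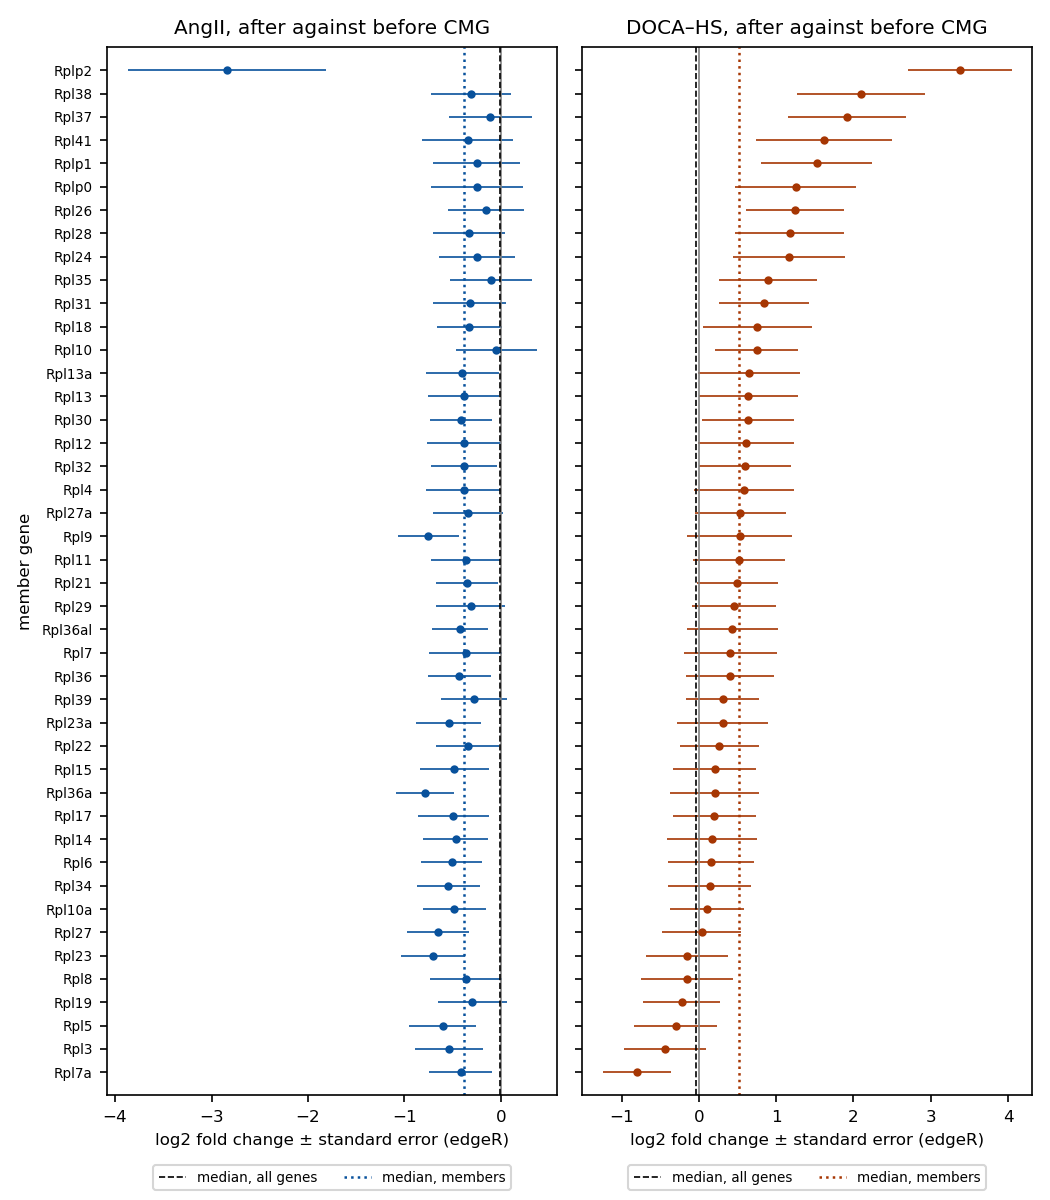
Log2 fold change of after against before CMG for 44 of the 45 tested members (points, with the standard error from edgeR), in the AngII model on the left and the DOCA–HS model on the right, ordered by the DOCA–HS value. Dashed lines mark the median of all genes tested and dotted lines that of the members, at −0.38 and 0.52. With the TMM factors used here all points of the AngII panel lie left of 0 (31 of 45 with total counts), Rplp2 farthest at −2.84, and in the DOCA–HS panel they run from −0.81 to 3.38.

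**Figure D2:**
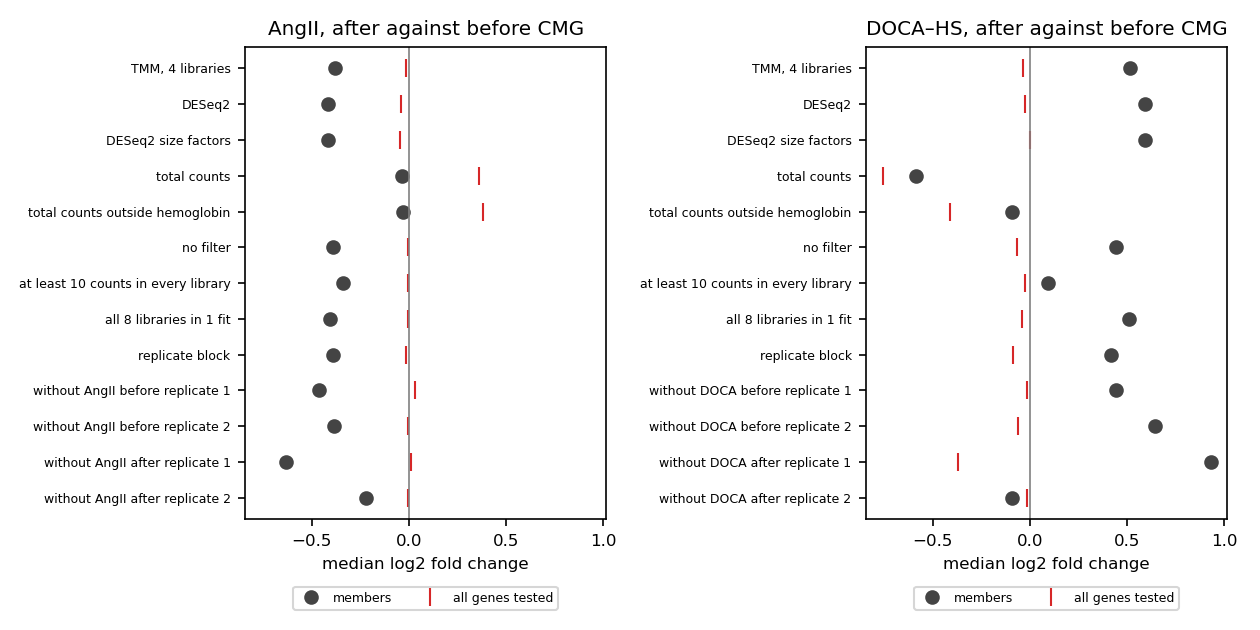
Median log2 fold change of the members (filled circles) and of all genes tested (red ticks) under each processing choice or with 1 library left out, for the AngII model on the left and the DOCA–HS model on the right. In the AngII panel the circles lie left of the ticks in every row. In the DOCA–HS panel they lie right of the ticks except in the row without DOCA–HS after replicate 2.

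The stalk held the member with the largest difference in both models. Rplp2, the acidic protein at the tip of the stalk, measured 1.81 and 24.2 normalized CPM in the AngII libraries before CMG and 2.40 and 1.18 in those after it. Its DOCA–HS values, before replicates first, were 0.776, 1.38, 15.4 and 4.22. Thus AngII before replicate 2 and DOCA–HS after replicate 1 were high, and the other 6 libraries were low. Rplp2 fell after CMG in the AngII model (log2 fold change −2.84, standard error 1.03, adjusted p = 0.663, edgeR), although its groups overlapped. It rose in the DOCA–HS model (3.38, standard error 0.67, adjusted p = 0.997), where they did not. The fall rested on 1 library, because without AngII before replicate 2 the log2 fold change was −0.12 and missed the unadjusted threshold. With DESeq2 the AngII value was −2.86 and missed it as well (adjusted p = 0.9996). With total counts the DOCA–HS value was 2.95 and missed it too. The rise was 2.03 without DOCA–HS after replicate 1 and 3.93 without after replicate 2. The adjusted p-value of Rplp2 ran from 4.97e-09 to 0.9996 over the alternatives for AngII and from 2.52e-22 to 0.99997 for DOCA–HS.

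The counts behind Rplp2 were few. They were 23, 143, 15 and 16 in the AngII libraries, before replicates first, and 14, 13, 200 and 6 in the DOCA–HS libraries. Set against Rplp0 in the same library, which no scaling can change, they amounted to 0.0155 in AngII before replicate 2 and 0.0133 in DOCA–HS after replicate 1, and to 0.000945 to 0.00162 in the other 6 libraries. In DOCA–HS after replicate 2 the ratio was 0.00143, inside the range of the low libraries.

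Its partners did not share this pattern. Rplp1, which pairs with Rplp2, measured 96.2 and 110 normalized CPM in the AngII libraries before CMG and 120 and 50.3 in those after it. In DOCA–HS blood it measured 75.8 and 66.0 before and 80.5 and 327 after CMG, with DOCA–HS after replicate 2 alone far above the rest. Its log2 fold changes were −0.25 (standard error 0.45, adjusted p = 0.908) under AngII and 1.52 (standard error 0.72, adjusted p = 0.997) under DOCA–HS. Rplp0, the protein that anchors the stalk to ribosomal RNA, measured 1323 and 1559 before and 1480.3 and 902 after CMG in the AngII libraries. The DOCA–HS values of Rplp0 were 821 and 910 before and 1157 and 2958 after it, without overlap. The log2 fold changes of Rplp0 were −0.25 (standard error 0.48, adjusted p = 0.910) and 1.26 (standard error 0.78, adjusted p = 0.997). Rpl12, at the base of the stalk, had −0.38 and 0.61 and passed in neither model. The 4 stalk genes had a median of −0.32 under AngII, with 1 of 4 falling, and of 1.39 under DOCA–HS, with 1 of 4 rising.

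**Figure D3:**
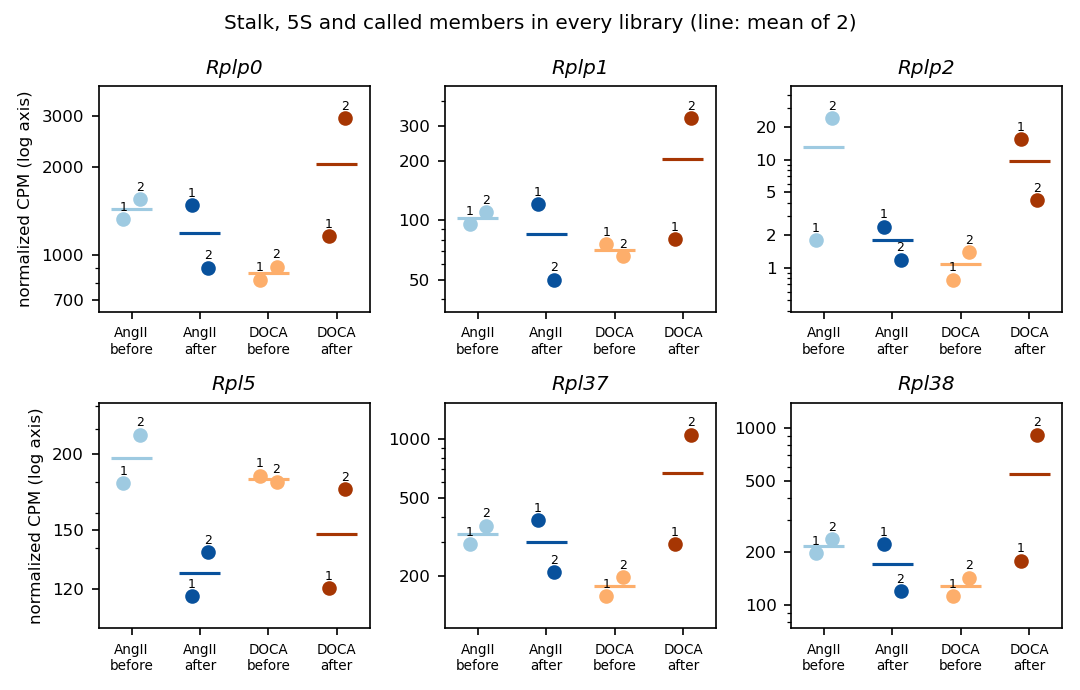
Normalized CPM (log axis) of 6 members in the 8 libraries, 1 panel a gene, with points for libraries numbered by replicate and lines for the mean of the 2 libraries of a group. Rplp2 is high in AngII before replicate 2 (24.2) and DOCA–HS after replicate 1 (15.4), while Rplp0, Rplp1, Rpl37 and Rpl38 are highest in DOCA–HS after replicate 2. Rpl5 is lower in both AngII libraries after CMG than in both before it.

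Rpl37 and Rpl38, small proteins of the subunit surface and interior that occur in eukaryotes and not in bacteria, were the other members to rise in the DOCA–HS model. Rpl38, which mice need to translate a set of Hox mRNAs, measured 112 and 143 normalized CPM before CMG and 178 and 911 after it. The groups did not overlap (log2 fold change 2.10, standard error 0.83, adjusted p = 0.997, edgeR). Rpl37 measured 159 and 198 before CMG and 291 and 1048 after it, again without overlap (1.91, standard error 0.76, adjusted p = 0.997). In both genes after replicate 2 was several times above after replicate 1. Without it the log2 fold changes were 0.49 for Rpl38 and 0.72 for Rpl37, and neither passed. With total counts they were 0.60 and 0.56, and neither passed. Both also missed the unadjusted threshold when either DOCA–HS library before CMG was left out. The AngII values were −0.31 for Rpl38 (adjusted p = 0.870) and −0.11 for Rpl37 (adjusted p = 0.954).

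After these and Rplp1, the next members in order of p-value in the DOCA–HS model did not pass the unadjusted threshold. Rpl26, a tunnel exit protein that is modified by UFM1 at the endoplasmic reticulum, had a log2 fold change of 1.25 (standard error 0.63). Rpl41, the shortest of the ribosomal proteins, had 1.62 (standard error 0.88). At the other end, Rpl7a had −0.81 (standard error 0.44), with 14.3 and 17.4 normalized CPM before and 8.995 and 9.14 after CMG, and its groups did not overlap. The adjusted p was 0.997 for all 3.

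The 5S RNA binders were lower after CMG in the AngII model without passing the test. Rpl5 measured 179 and 215 normalized CPM before and 117 and 138 after CMG, without overlap (log2 fold change −0.61, standard error 0.35, adjusted p = 0.774). The DOCA–HS libraries had 184 and 180 before and 120 and 175 after CMG for Rpl5, also without overlap (−0.30, standard error 0.54, adjusted p = 0.997). Rpl11 had −0.36 (adjusted p = 0.838) and 0.52 (adjusted p = 0.997). With TMM factors Rpl5 was one of 6 members below 0 in both models and Rpl11 was not. With total counts 38 members lay below 0 under DOCA–HS, and Rpl11 was below 0 in both models (−0.030 and −0.57).

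Beside Rplp2, 2 members fell in the AngII model. Rpl36a, which lies at the exit site for tRNA, measured 41.2 and 48.0 normalized CPM before and 24.0 and 26.7 after CMG (log2 fold change −0.79, standard error 0.30, adjusted p = 0.699, edgeR). Rpl9 measured 79.9 and 79.2 before and 44.5 and 48.7 after CMG (−0.75, standard error 0.31, adjusted p = 0.733). Groups did not overlap for either. Both missed the unadjusted threshold when either library before CMG was left out, and in the fit of all 8 libraries. They also missed it with total counts, at −0.40 for Rpl36a and −0.37 for Rpl9, and with total counts outside hemoglobin, at −0.38 and −0.35. Rpl23, at the face toward the small subunit, and Rpl27 followed with −0.71 and −0.65 and missed that threshold (adjusted p = 0.752 for both). Under DOCA–HS, Rpl36a had 0.20 and Rpl9 0.53 (adjusted p = 0.997 for both).

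By position in the subunit, the differences were even in the AngII model and uneven in the DOCA–HS model. The 5 core members, which reach toward the peptidyl transferase centre or form the L1 stalk, had medians of −0.39 (AngII) and 0.11 (DOCA–HS), Rpl10 being the highest (−0.047 and 0.75) and Rpl3 the lowest (−0.54 and −0.43). The 8 members at the rim of the exit tunnel had −0.31 and 0.31. The 25 tested members of no listed position had −0.39 and 0.53. In the core 0 of 5 and at the rim 0 of 8 passed the unadjusted threshold in either model (edgeR, lowest adjusted p 0.782). All these are values with TMM factors, and the sign of the DOCA–HS medians turned with the scaling as above for the whole family. Members with a pyrimidine run of at least 8 bases and those with a shorter run had medians of −0.35 and −0.37 under AngII, and of 0.53 and 0.56 under DOCA–HS.

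Shares of the summed member counts show how the members moved against each other, free of any library scaling. In the AngII model, 1 member had a higher share in both libraries after CMG than in both before it (Rpl24) and 3 a lower one (Rpl10a, Rpl15 and Rpl36a). Over all genes read against the same sum, 35% were higher and 4.24% lower without overlap. Among the DOCA–HS libraries, 6 members had a higher share without overlap, Rplp0, Rpl37 and Rpl38 among them, and 27 a lower one, where 4.35% and 34.1% of all genes did so. As shares add up to a fixed sum, a few abundant members that gain make the others lose. With Rplp0 and Rpl41 left out of the sum, 10 members were higher and 21 lower under DOCA–HS, and 0 and 5 under AngII. This reduced sum was chosen after seeing the data. All genes were not counted against it, so these counts are not read as a result about the members.

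Single shares show both sides. Rplp0 took 12.6% of the member counts in both DOCA–HS libraries before CMG and 16.4% and 16.3% in those after it. Rpl37 took 2.44% and 2.74% before and 4.14% and 5.79% after CMG, and Rpl38 1.72% and 1.97% before and 2.53% and 5.02% after it (95% Wilson interval of the last 4.76% to 5.30%). The libraries after CMG were higher for all 3, also in after replicate 1. On the other side, Rpl5 took 2.82% and 2.49% before and 1.71% and 0.966% after CMG. Rpl3 took 3.04% and 2.52% before and 1.78% and 0.858% after it (interval of the last 0.752% to 0.978%). In AngII after replicate 1 these members stood on the same sides, with 4.24% for Rpl37, 1.28% for Rpl5 and 1.45% for Rpl3, and AngII after replicate 2 did not share this, with 3.25%, 2.14% and 2.51%. Over the 45 members, the order of shares in AngII after replicate 1 was closest to that of DOCA–HS after replicate 1, with a Spearman correlation of 0.989 across members, against 0.949 with its own replicate. The points are genes of 2 libraries and no replicates.

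**Figure D4:**
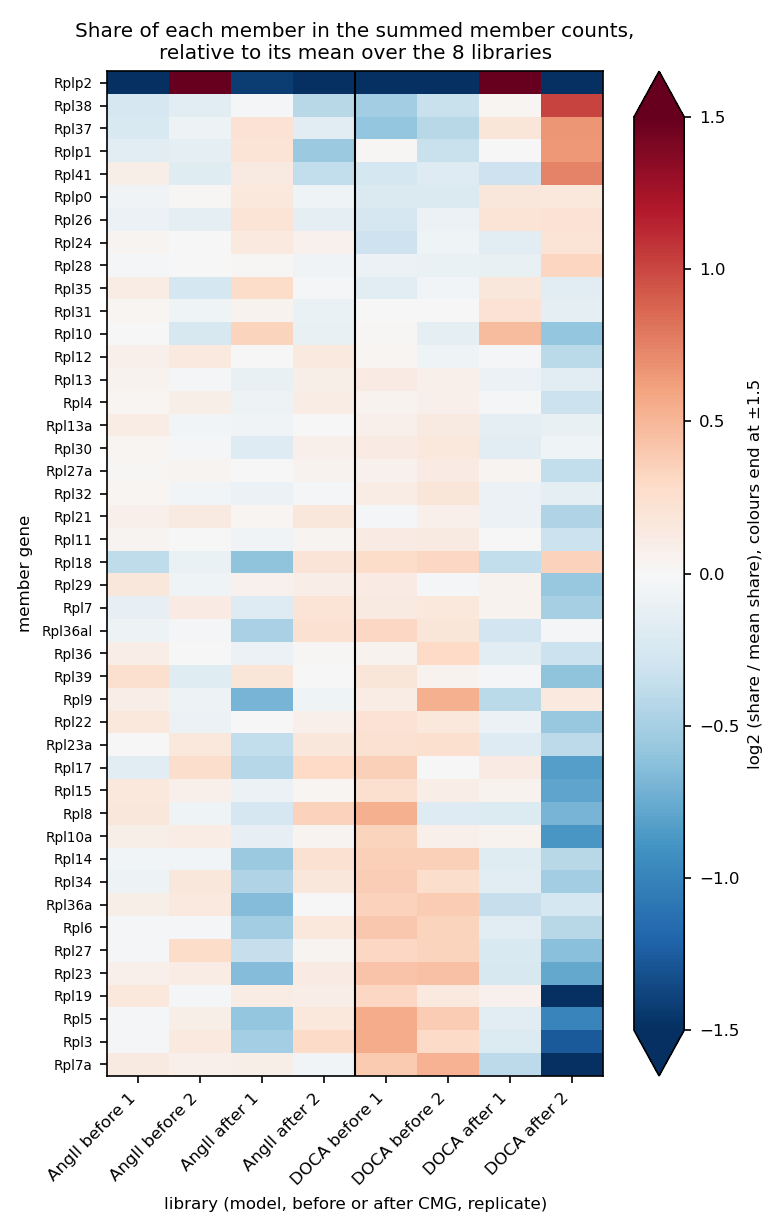
Share of 44 of the 45 tested members in the summed member counts of a library, as log2 of its ratio to the mean share over the 8 libraries (red above, blue below, colours end at ±1.5), with members in rows ordered by the DOCA–HS difference and libraries in columns. Rpl37, near the top, and the bottom rows Rpl5, Rpl3 and Rpl7a differ in sign between DOCA–HS libraries before and after CMG, while Rplp2 is red in AngII before replicate 2 and DOCA–HS after replicate 1 alone. AngII after replicate 1 is blue for Rpl5 and Rpl3, unlike AngII after replicate 2.

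The ratio of Rplp0 to Rpl5 counts puts this division in 1 number a library. AngII libraries had 7.40 and 7.25 before CMG and 12.7 and 6.55 after it. DOCA–HS libraries had 4.46 and 5.06 before and 9.61 and 16.9 after it. The DOCA–HS groups did not overlap, and the AngII groups did. The pair was not planned and was taken from members whose shares are given above, so the DOCA–HS separation follows from those shares. Of 12 listed lymphocyte markers, 11 were read, and they summed to 232 and 266 normalized CPM before and 166 and 234 after CMG in AngII rats. The sums of DOCA–HS rats were 282 and 271 before and 187 and 184 after it. In normalized CPM the lowest 3 lymphocyte sums were those of the 3 libraries with the highest ratio. As shares of the counts outside hemoglobin this did not hold. DOCA–HS after replicate 1 then had 0.0816%, above AngII before replicates 1 and 2 with 0.0657% and 0.0685%. Of 7 listed platelet markers 5 were read, with Gp1bb at 0 in all libraries, and they summed to 549 and 166 before and 498 and 53.1 after CMG in AngII rats. DOCA–HS rats had platelet sums of 182 and 264 before and 522 and 949 after it. The 9 erythroid markers read, of 10 listed, summed to 28352 and 37255 before and 28424 and 18334 after CMG, and to 14460 and 21326 before and 15417 and 52590 after it. In normalized CPM, DOCA–HS after replicate 2 had the highest erythroid and platelet sums and the lowest Ptprc level. As shares of the counts outside hemoglobin, its platelet markers (0.207%) lay below those of DOCA–HS after replicate 1 (0.228%). The 10 neutrophil markers lay between 136 and 503. Platelet sums were 498 or more in the libraries with a ratio of 7.40 or more, and 264 or less in the others. This cut was set after the values were seen. It falls between the AngII libraries before CMG, with close ratios of 7.40 and 7.25 and platelet sums of 549 and 166. The division is therefore not read as a result. Erythroid and neutrophil sums were not divided by this cut. The part of these markers in the member values was not tested.

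**Figure D5:**
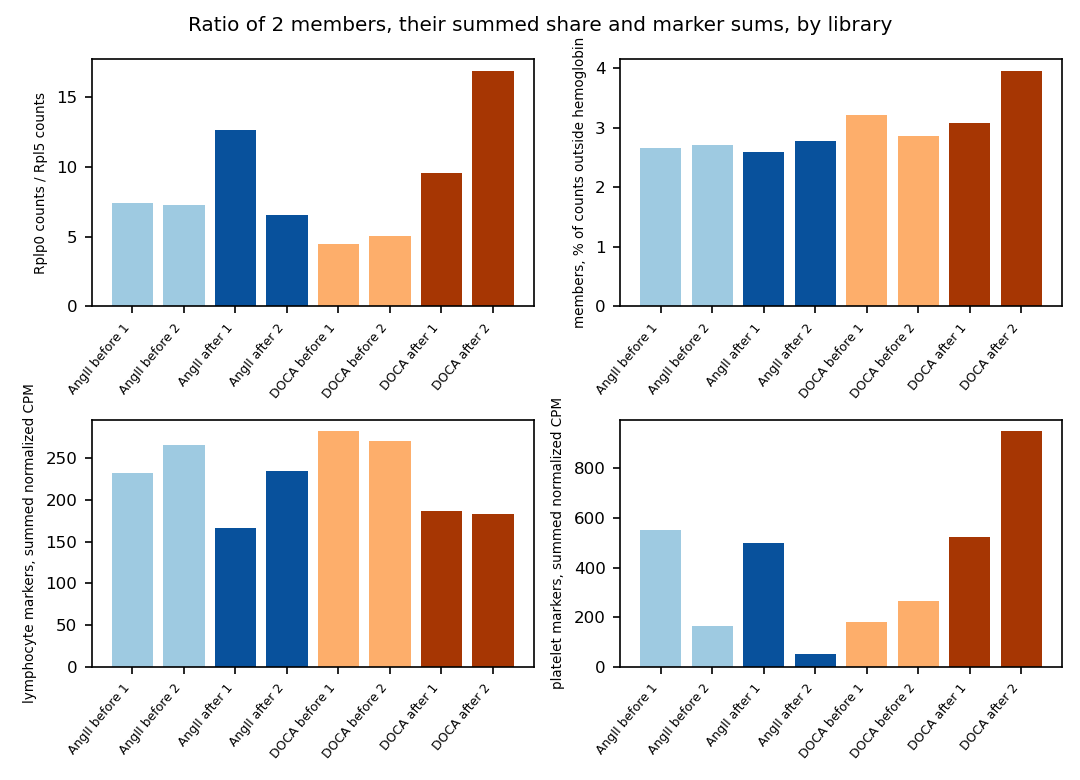
Bars give, for each of the 8 libraries, the ratio of Rplp0 to Rpl5 counts, the summed share of the members in the counts outside hemoglobin (%), and the summed normalized CPM of the lymphocyte and of the platelet markers, with 1 colour a group and axes from 0. The ratio is highest in DOCA–HS after replicate 2 (16.9), AngII after replicate 1 (12.7) and DOCA–HS after replicate 1 (9.61). In normalized CPM these libraries have the lowest lymphocyte sums, between 166 and 187, but not as shares of the counts outside hemoglobin. Platelet sums are 498 or more in these libraries and in AngII before replicate 1, and 264 or less in the others.

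As lists, the markers gave the following. After CMG in DOCA–HS rats 2 of 4 tested platelet markers (Pf4 and Treml1) rose past the unadjusted threshold, where 2.73% of all genes did, and none past the adjusted one (adjusted p = 0.997). The median of the 4 was 1.49, and the highest platelet sum in normalized CPM was that of DOCA–HS after replicate 2. The 9 erythroid markers had a median of 0.57 and the 10 tested lymphocyte markers one of −0.56, and 0 of both passed with edgeR (adjusted p = 0.997). In the AngII model the erythroid markers had a median of −0.48 with 0 of 9 passing (edgeR, lowest adjusted p = 0.774). The platelet markers had one of −0.32 with 0 of 4 passing (lowest adjusted p = 0.925). The 10 lymphocyte markers had one of −0.40, with 4 above 0. Of them 2 fell, where 1.61% of all genes did (lowest adjusted p = 0.631). The 9 tested neutrophil markers had a median of −0.19 under AngII. Of them 2 rose, where 5.04% of all genes did (lowest adjusted p = 0.628). Under DOCA–HS their median was −0.07 and 1 fell, where 0.44% of all genes did (adjusted p = 0.997).

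Other genes of protein synthesis were read from the same fits, with TMM factors. The 32 tested small subunit genes, whose products form the other subunit of the ribosome, had a median of −0.44 under AngII with 1 falling, and of 0.69 under DOCA–HS with 0 passing (adjusted p = 0.997), close to the large subunit in both. The 7 elongation factor genes, among them Eef1a1 and Eef2, had −0.43 and 0.04. The mitochondrial large subunit genes, which encode a separate ribosome, had −0.14 and −0.15, with 1 falling under AngII, and 1 rising and 1 falling under DOCA–HS. The 32 tested assembly factors of the 60S subunit, such as Nop56 and Eif6, had −0.10 and −0.15, with 1 rising in the AngII model. The 12 genes of mTOR and related control of ribosomal protein synthesis had 0.10 and −0.20, with 1 falling in the AngII model, and the 6 genes of large subunit quality control had −0.12 and −0.01. Over all genes, 1.61% fell and 5.04% rose under AngII, and 0.44% fell and 2.73% rose under DOCA–HS. Single calls in lists of this size are therefore not read as results about the lists, and none passed the adjusted threshold (edgeR).

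The change after CMG was compared between the models in 1 fit of all 8 libraries. The difference, DOCA–HS minus AngII, had a median of 0.90 over the 45 members with TMM factors, against −0.12 over 7994 genes, and turned to −0.55 with total counts and −0.076 with total counts outside hemoglobin. In all 3 scalings 44 of 45 members lay above the median of all genes. Past the unadjusted threshold, 3 members were higher and 0 lower, where 2.53% and 1.21% of all genes were. They were Rplp2 with 6.29 (standard error 1.45), Rpl38 with 2.43 (standard error 0.97) and Rpl37 with 2.04 (standard error 0.88), each with an adjusted p of 0.881 (edgeR). DESeq2 gave 7 members at the unadjusted and 1 at the adjusted threshold. Without DOCA–HS after replicate 2 the median was 0.29, against −0.065 for all genes.

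Before CMG, the log2 fold change of DOCA–HS against AngII lay below 0 for 45 of 45 members with TMM factors (median −0.43, all genes 0.061). With total counts it did so for 2 of 45 (median 0.36, all genes 0.86). The single libraries overlapped for some members, such as Rpl5, with 184 and 180 normalized CPM in DOCA–HS and 179 and 215 in AngII. The member past the unadjusted threshold was Rplp2 (−3.59, adjusted p = 0.992, edgeR), where 1.49% of all genes were higher and 1.89% lower. Rplp2 no longer passed without AngII before replicate 2, the library with its high value, or without DOCA–HS before replicate 1. When the 4 libraries before CMG were fitted alone, 12 members were lower. The shares above are not those of that fit, so this count is not read as a result about the members. Model and week of the model cannot be told apart in this comparison, and the erythroid markers had a median of −0.92 in it. After CMG, the median was 0.48 with TMM factors and −0.19 with total counts, and Rplp2 (2.71) and Rpl38 (1.67) were higher past the unadjusted threshold (adjusted p = 0.99998 for both, edgeR) in the DOCA–HS model, where 2.05% of all genes were higher and 0.738% lower. Without DOCA–HS after replicate 2 this median was −0.16. These comparisons share libraries with those of after against before CMG.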

How the data were processed

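Whole blood RNA of 8 rat samples was sequenced as single-end reads from directional libraries. The authors checked reads with FastQC, aligned them to rn6 with HISAT2 and counted them on genes by strand with HTSeq. What the authors deposited are raw, unnormalized counts. Their methods say that hemoglobin genes were taken out of the annotation, yet Hbb and another hemoglobin gene have rows in the deposited counts. Samples were grouped by model and by before or after CMG (2 a group). Counts were fitted over all genes with edgeR 4.0.16 in R 4.3.3 (filterByExpr, TMM, estimateDisp, glmQLFit, glmQLFTest), each model alone for after against before CMG, and all 8 libraries for comparisons between models. P-values were adjusted over all genes tested (Benjamini-Hochberg). The unadjusted threshold was a p-value of 0.05 or less, and the criterion of the study added a log2 fold change beyond 1.5. Normalized CPM use the TMM factors of the fit over 8 libraries, and log2 CPM of library pairs a prior count of 2. The computation was tested on simulated data. Total counts per library were 4149104 to 13205565, so members with few counts, such as Rplp2, are the least precise.

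Members and gene lists were chosen with earlier results of these data known. Named members were, in each model, the 5 with the smallest unadjusted p, and in every comparison those of the stalk and the 5S complex, the tissue-restricted copies, Rpl37 and Rpl38. The highest and lowest members of a group, and members named for their share, follow a rule of size. Levels per length and a comparison with protein length were planned and not run, as no length table was used here. Alternatives were DESeq2 1.42.0, its size factors, total counts with and without hemoglobin, all genes unfiltered, a minimum of 10 counts in every library, other sets of libraries, the replicate number as a block, each library left out and, chosen after seeing the data, scaling to the summed member counts. The plots by member leave out 1 tested member, which is not reported by name here. The count table had 0 columns of no sample.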

Additional observations from a re-analysis of the deposited data

Results flagged for a closer look

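Of the 45 tested members, 3 had a change after CMG that differed between the models past the unadjusted threshold in the fit of all 8 libraries, by the test of the difference itself. Rplp2 had a log2 difference (DOCA–HS minus AngII) of 6.29 (standard error 1.45), Rpl38 one of 2.43 (standard error 0.97) and Rpl37 one of 2.04 (standard error 0.88). The adjusted p was 0.881 for each (edgeR). For Rplp2 the libraries behind the difference were AngII before replicate 2 and DOCA–HS after replicate 1, and for Rpl37 and Rpl38 DOCA–HS after replicate 2.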

How the results depend on the processing

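The comparison of after with before CMG in the AngII model kept a member median below that of all genes under every alternative run, while the DOCA–HS median depended on the scaling and on DOCA–HS after replicate 2, and the cause was not tested. The count of members past the unadjusted threshold (3, 3, 3, 1 and 2 for AngII, DOCA–HS, the difference, before and after CMG) became 7, 7 and 6 with DESeq2 in DOCA–HS, the difference and after CMG. Without a filter it became 5 in each of these 3. With total counts it became 1 in AngII, 0 in DOCA–HS, 1 in the difference and 1 after CMG, and without hemoglobin in the total 1 in AngII and 4 after CMG. With at least 10 counts in every library it was 1 in the difference and 0 before CMG. In the fit of all 8 libraries it was 1 in AngII and 5 in DOCA–HS, and with 4 libraries alone 12 before and 1 after CMG, fewer samples being fitted. Relative to the summed member counts, which was added once the data had been seen, it was 1 in AngII, 1 in the difference and 1 after CMG. Leaving out 1 library at a time gave 0 to 19 members in AngII (0 without before replicate 2, 1 without the other library before CMG, 5 without after replicate 2), 1 to 27 in DOCA–HS (1 without either library before CMG), 1 to 30 in the difference (30 without DOCA–HS after replicate 1), 0 to 2 before CMG (0 without AngII before replicate 2 or DOCA–HS before replicate 1) and 0 to 23 after CMG (23 without DOCA–HS after replicate 1, 0 without AngII after replicate 2). In these fits the lone library of a group was assumed to vary like the others. The counts of the alternatives stand here without the share of all genes, and are not read as results about the members.

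The member medians with total counts were −0.038 in AngII, −0.59 in DOCA–HS, −0.55 in the difference, 0.36 before and −0.19 after CMG, and with the total outside hemoglobin −0.030, −0.095 and −0.076 in the first 3 and 0.29 before CMG. With at least 10 counts in every library they were 0.094 in DOCA–HS, 0.30 in the difference and 0.12 after CMG. Leaving out 1 library gave −0.64 to −0.22 in AngII, −0.092 to 0.93 in DOCA–HS, 0.29 to 1.33 in the difference, −0.55 to −0.38 before and −0.16 to 0.92 after CMG. The spread of the median between replicates was 0.30 (log2, pooled SD). The summed share with hemoglobin in the total was 0.906%, 0.817%, 0.835% and 0.877% in the AngII libraries and 1.22%, 0.832%, 1.01% and 0.621% in the DOCA–HS libraries, so DOCA–HS after replicate 2 went from the highest to the lowest. Without Rplp0 it was 2.29%, 2.31%, 2.17% and 2.40%, and 2.81%, 2.51%, 2.57% and 3.31%.

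Of the named members, Rplp0, Rplp1 and Rpl37 turned sign in the AngII model with total counts (0.058, 0.0041 and 0.18), the total outside hemoglobin (0.063, 0.0073 and 0.19) and the summed member counts (0.069, 0.022 and 0.19). Leaving out 1 library gave −0.71 to 0.060 for Rplp0, −1.07 to 0.24 for Rplp1, −0.68 to 0.26 for Rpl37 and −0.88 to 0.060 for Rpl38, above 0 in each case without after replicate 2, and for Rpl37 also without before replicate 2 (0.0055). For DOCA–HS, Rpl12, Rpl11 and Rpl36al turned with total counts (−0.48, −0.57 and −0.77), outside hemoglobin (−0.0029, −0.095 and −0.19) and with the summed member counts (−0.19, −0.28 and −0.40) and Rpl36al with at least 10 counts (−0.024). Leaving out 1 library gave −0.087 to 0.94 for Rpl11 and −0.49 to 1.14 for Rpl36al, below 0 without after replicate 2. None of these members was past the threshold in the model concerned.

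With the replicate number as a block, 2 members passed in AngII, 3 in DOCA–HS and 4 in the difference, with medians of −0.39, 0.42 and 0.82, so no count at the unadjusted threshold moved by over 1.5 times. Single calls did change under the block in AngII. Rpl9 missed the unadjusted threshold, and Rplp2 passed the adjusted one (adjusted p = 4.97e-09), as did 165 of all genes. The correlation of same-numbered deviations from the group means was 0.473 in AngII and 0.321 in DOCA–HS, from 2 pairs each, and no source states that a number marks a rat. For before and after CMG between the models no block was fitted, since a number would then tie together rats of different models. DOCA–HS after replicate 2, with 651764 counts outside hemoglobin, limits the precision of every DOCA–HS value.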

Other observations

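A search made after the values were seen asked which genes shared the pattern of Rplp2. Among all 17446 genes, Rplp2 alone had at least 50 counts in AngII before replicate 2 and in DOCA–HS after replicate 1 and at least 5 times its level of every other library in both, with levels taken as shares of the counts outside hemoglobin. In normalized CPM the DOCA–HS libraries after CMG stood closer, at 15.4 and 4.22. Members were also read relative to their own sum, a scaling likewise chosen after seeing the data. Rplp2 then had log2 fold changes of −2.45 in the AngII model (adjusted p = 0.0130, edgeR) and 2.997 in the DOCA–HS model (adjusted p = 0.965). Its AngII groups overlapped on this scale as well. The high value was that of AngII before replicate 2 alone, with 143 counts against 23, 15 and 16. Rpl37 had 0.94 in the DOCA–HS model (adjusted p = 0.965).

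Genes named like members but outside the naming rule had values of their own. Rpl22l1, a paralog of Rpl22, had 63, 54, 24 and 58 counts in the AngII libraries, before replicates first, and 88, 58, 59 and 10 in the DOCA–HS libraries. Rpl35al1, named as a relative of Rpl35a, had 172, 87, 70 and 144, and 124, 99, 112 and 38 counts.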
